A study of Mus musculus with 16 samples.

Results

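Rods and cones answer light with a fall of cyclic GMP and must switch that answer off again before they can report the next change. The transcripts described here are those of 10 genes of this recovery step: the photoreceptor opsin kinase Grk1, the transducin GTPase complex Rgs9, Rgs9bp and Gnb5, the guanylate cyclases Gucy2e and Gucy2f, the cyclase activators Guca1a and Guca1b, the calcium sensor Rcvrn, and phosducin, Pdc. They were taken by gene symbol from the annotated table, and all 10 were found among the 20259 genes measured. Each had 1 probe set (a transcript cluster, with 1 summarised log2 signal per array), so no choice between probe sets was needed.

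In the dark, open cyclic GMP-gated channels let calcium into the outer segment. Light activates the opsin, transducin and phosphodiesterase in turn, cyclic GMP falls, the channels close and calcium drops. Recovery runs in parallel at each stage: the kinase phosphorylates the opsin so that arrestin can cap it, the RGS9 complex speeds GTP hydrolysis on transducin, and the guanylate cyclases rebuild cyclic GMP. Low calcium sets the pace, because the cyclase activators release their calcium and stimulate the cyclases, while recoverin releases its calcium and frees the kinase.

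The retinas came from mice null for Gtf2ird1, a transcription factor gene of the TFII-I family (called BEN-NULL in the labels), and from wild-type (WT) mice. There were 4 groups of 4 biological replicates: null at 2 weeks, WT at 2 weeks, null at 4 months and WT at 4 months. Total RNA of each retinal sample was hybridised to an Affymetrix Mouse Exon 1.0 array, a single-colour array with probes along the exons of each gene. The titles give the older age as 4 months and the growth protocol gives 2 months, and the titles are followed here. The labels give no strain, sex, litter or construction of the null allele, and no treatment was applied.

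Of the 4 probe sets of Gtf2ird1, 3 were lower in null retinas by 3.76 to 4.70 on the log2 scale over both ages, and the other differed by 0.17 at 2 weeks and 0.03 at 4 months. Rod markers were present in every array (7 genes measured), with a summed linear signal of 40505 to 50339. The median log2 signal of an array ran from 5.31 to 5.55. The highest median belonged to WT replicate 1 of 2 weeks, which also had the lowest mean correlation with the other arrays of its group (0.974, against 0.983 to 0.991 for the other 15 arrays). Xist, a transcript of the inactive X chromosome, read 12.7 to 13.3 in 3 arrays, WT replicates 1 and 4 of 2 weeks and WT replicate 4 of 4 months, and no more than 4.79 in the other arrays. All 3 are WT arrays, so sex by this transcript was not balanced between the genotypes. Precision is limited by having 4 arrays in each group.

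The RefSeq promoter table held 7 of the 10 genes. The 250 bases before the transcript start are shown for the 4 that carry the homeodomain core GGATTA, with Rgs9 and Pdc, whose signals are described in detail below. Crx and Otx2, the homeodomain factors of photoreceptors, bind this core, and a closely related core has been described for Gtf2ird1. Capitals mark GGATTA or its reverse complement TAATCC and, in Rgs9 alone, TCAGCA, the reverse complement of TGCTGA, a Maf half-site of the kind that the rod factor Nrl binds.
Guca1a, GRCm38.p6 chr17:47400607-47400856, minus strand: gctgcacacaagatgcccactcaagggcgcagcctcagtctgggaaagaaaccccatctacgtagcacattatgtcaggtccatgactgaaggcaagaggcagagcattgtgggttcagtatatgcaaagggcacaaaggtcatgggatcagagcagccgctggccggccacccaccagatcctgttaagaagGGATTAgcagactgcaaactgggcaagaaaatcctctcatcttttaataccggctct
Gucy2e, GRCm38.p6 chr11:69237023-69237272, minus strand: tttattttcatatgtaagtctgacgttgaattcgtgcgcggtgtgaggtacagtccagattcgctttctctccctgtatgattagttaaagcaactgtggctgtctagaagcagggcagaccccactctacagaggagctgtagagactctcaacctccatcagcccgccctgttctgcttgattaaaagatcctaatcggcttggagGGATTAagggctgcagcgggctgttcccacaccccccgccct
Gucy2f, GRCm38.p6 chrX:142196937-142197186, minus strand: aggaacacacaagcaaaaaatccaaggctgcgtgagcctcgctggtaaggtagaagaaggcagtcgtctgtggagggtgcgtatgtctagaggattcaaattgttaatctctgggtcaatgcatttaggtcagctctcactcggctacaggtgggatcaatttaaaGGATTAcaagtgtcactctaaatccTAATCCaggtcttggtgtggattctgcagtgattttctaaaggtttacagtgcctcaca
Gnb5, GRCm38.p6 chr9:75306038-75306287, plus strand: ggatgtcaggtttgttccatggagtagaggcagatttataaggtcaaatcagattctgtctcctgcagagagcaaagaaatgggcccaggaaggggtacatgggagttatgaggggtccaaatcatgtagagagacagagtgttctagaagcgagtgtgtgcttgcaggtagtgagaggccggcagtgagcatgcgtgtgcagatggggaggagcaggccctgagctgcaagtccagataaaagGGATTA
Rgs9, GRCm38.p6 chr11:109298182-109298431, minus strand: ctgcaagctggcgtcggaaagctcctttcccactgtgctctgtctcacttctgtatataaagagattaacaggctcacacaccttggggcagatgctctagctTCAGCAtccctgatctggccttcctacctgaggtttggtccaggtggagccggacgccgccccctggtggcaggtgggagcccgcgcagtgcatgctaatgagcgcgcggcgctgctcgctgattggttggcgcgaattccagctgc
Pdc, GRCm38.p6 chr1:150319167-150319416, plus strand: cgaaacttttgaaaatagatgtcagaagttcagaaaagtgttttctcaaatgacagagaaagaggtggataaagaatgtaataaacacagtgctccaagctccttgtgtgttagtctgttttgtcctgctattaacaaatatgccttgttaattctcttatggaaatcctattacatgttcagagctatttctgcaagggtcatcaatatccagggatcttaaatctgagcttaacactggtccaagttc

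GGATTA was found on either strand in 4 of the 7 promoters, while 6.25% of the 32851 promoters of the table hold it in the same window. The match lay 52 to 57 bases before the start in Guca1a, 37 to 42 bases before it in Gucy2e and 1 to 6 bases before it in Gnb5. Gucy2f had 2 matches, one on each strand, 79 to 84 and 54 to 59 bases before the start. TGCTGA was found in 1 of the 7 promoters, Rgs9, 142 to 147 bases before the start, against 16.1% of all promoters. The Grk1 and Pdc promoters held neither motif. The motifs do not overlap in these windows, and a match describes letters, not binding.

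**Figure D1:**
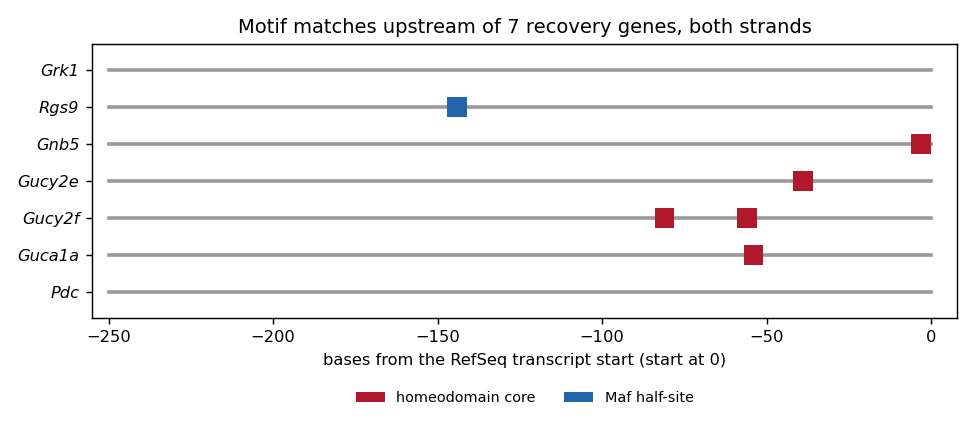
Position of motif matches (coloured blocks, either strand) in the 250 bases before the RefSeq transcript start of 7 recovery genes, with the x axis in bases from the start. All 5 homeodomain core matches, in 4 genes, lie within 84 bases of the start.

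The first comparison asked whether the recovery genes depend on Gtf2ird1. None of the 10 passed the test between null and WT retinas at either age, and the differences were small: from -0.29 to 0.17 on the log2 scale at 2 weeks and from -0.10 to 0.24 at 4 months. The threshold was an adjusted p of 0.05 in limma, with Benjamini-Hochberg adjustment across the 20259 genes, which 1.06% of all genes met at 2 weeks and 0.41% at 4 months. At 2 weeks 2 of the 10 had an unadjusted p under 0.05, as did 12.5% of all genes. At 4 months it was 1 of the 10, against 5.37% of all genes. The median difference of the 10 was -0.03 at 2 weeks (-0.02 over all genes) and 0.06 at 4 months (-0.00 over all genes). Averaged over both ages, 0 of the 10 were called by limma, against 1.4% of all genes, with an unadjusted p under 0.05 in 1 of the 10 and in 11.3% of all genes.

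**Figure D2:**
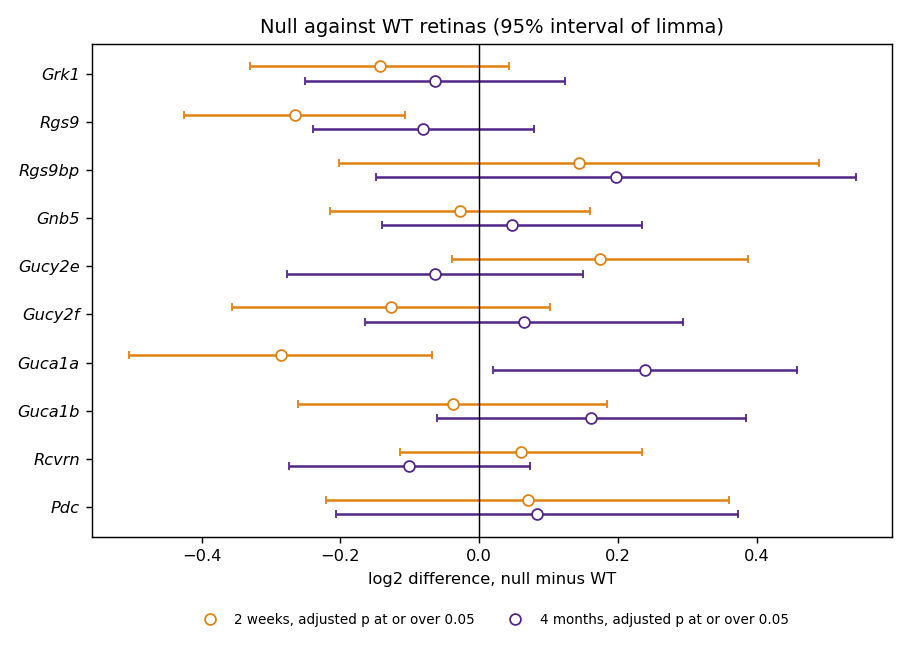
Log2 difference between null and WT retinas (x axis) for the 10 recovery genes at 2 weeks (orange) and 4 months (purple), with the 95% interval of the limma fit of 4 arrays a group. All 20 points are open, since none passed an adjusted p of 0.05, and the 2-week points of Rgs9 (-0.27) and Guca1a (-0.29) lie farthest to the left.

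Rgs9, the GTPase-accelerating protein that turns transducin off, was the member with the smallest limma p between the genotypes (unadjusted p = 0.00266 at 2 weeks). At 2 weeks it read 12.06, 12.16, 12.26 and 12.10 in null retinas and 12.39, 12.38, 12.38 and 12.49 in WT retinas. The highest null array was below the lowest WT array, with means of 12.14 ± 0.0877 and 12.41 ± 0.0564 (SD, n = 4). The log2 difference was -0.27 (95% interval -0.42 to -0.11, 1.20-fold lower, p = 0.0286 by exact permutation, the lowest possible with groups of 4), and it did not pass over all genes (limma adjusted p = 0.112). It passed after quantile normalization of the arrays (-0.34, adjusted p = 0.0337). At 4 months the groups overlapped, at 12.40, 12.54, 12.42 and 12.45 in null and 12.45, 12.44, 12.57 and 12.66 in WT, a difference of -0.08.

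Groups that do not overlap were found for 2 of the 10 genes at 2 weeks, Rgs9 and Gucy2e, and for 5.82% of all genes. Such groups of 4 always give an exact permutation p of 0.0286. For these genes, and for Guca1b below, that p therefore restates the lack of overlap. Gucy2e encodes the retinal guanylate cyclase GC1, which is expressed in rods and cones. It read 10.20, 10.27, 10.51 and 10.22 in null and 9.98, 10.19, 10.17 and 10.17 in WT at 2 weeks. The null arrays lay just above the WT arrays, with a log2 difference of 0.17 (95% interval -0.04 to 0.39, exact permutation p = 0.0286, limma adjusted p = 0.506). At 4 months Gucy2e differed by -0.06 and the groups overlapped.

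Guca1a, encoding the cyclase activator GCAP1, differed in opposite directions at the 2 ages. At 2 weeks it read 10.68, 10.64, 10.75 and 10.80 in null and 10.76, 11.02, 11.01 and 11.23 in WT. The null arrays were lower apart from an overlap with WT replicate 1, and the log2 difference was -0.29 (95% interval -0.50 to -0.07, exact permutation p = 0.0571, adjusted p = 0.248). At 4 months it read 11.71, 11.51, 11.75 and 11.74 in null and 11.25, 11.41, 11.46 and 11.63 in WT. Here null retinas had the higher mean, with a log2 difference of 0.24 (95% interval 0.02 to 0.46, exact permutation p = 0.0571, adjusted p = 0.806). Neither difference passed.

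Guca1b, encoding the second activator GCAP2, was the 1 member of 10 without overlap between genotypes at 4 months, when 4.73% of all genes had none. It read 9.68, 9.66, 9.67 and 9.66 in null and 9.52, 9.64, 9.55 and 9.32 in WT. The 4 null arrays agreed closely (SD 0.0113, against 0.134 in WT). The difference of 0.16 (95% interval -0.06 to 0.38, exact permutation p = 0.0286, limma adjusted p = 0.9999) was small. At 2 weeks Guca1b differed by -0.04 between the genotypes.

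The other members overlapped between genotypes at both ages. Grk1, the kinase that phosphorylates activated opsins, differed by -0.14 at 2 weeks (95% interval -0.33 to 0.04) and by -0.06 at 4 months (-0.25 to 0.12). Gucy2f, encoding the second retinal cyclase GC2 on the X chromosome, differed by -0.13 (-0.36 to 0.10) and 0.06 (-0.17 to 0.29). Its difference at 2 weeks was made smaller by WT replicate 1, without which it was -0.26 and still did not pass (limma adjusted p = 0.0817). Rgs9bp, which anchors the RGS9 complex to the disc membrane, had the widest intervals, with differences of 0.14 (-0.20 to 0.49) and 0.20 (-0.15 to 0.54). Gnb5, the G protein beta subunit that stabilises Rgs9, differed by -0.03 (-0.21 to 0.16) and 0.05 (-0.14 to 0.23). Rcvrn differed by 0.06 (-0.11 to 0.23) and -0.10 (-0.27 to 0.07), and Pdc by 0.07 (-0.22 to 0.36) and 0.08 (-0.21 to 0.37). All 12 intervals lie within -0.36 and 0.54 on the log2 scale. The Rgs9bp values depended on single arrays, running from 0.02 (without null replicate 4) to 0.29 (without WT replicate 1) at 2 weeks, and reading 0.07 without WT replicate 4 at 4 months.

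Markers of other cell types are given beside the 2-week comparison. The summed linear signal of 11 lens markers was 20388 to 60498 in null and 8097 to 27084 in WT retinas at 2 weeks, and that of 10 pigment epithelium markers was 4473 to 7302 and 3130 to 4886. These ranges overlap, and 0 of 11 lens genes (5 at an unadjusted p under 0.05) and 2 of 10 pigment genes were called higher in null by limma. The pigment list includes Rlbp1, which is also a listed marker of Muller glia. Its mean log2 signal (10.96 in null and 10.86 in WT at 2 weeks) was the highest of the 10 in all 4 groups. It therefore weighs most in the pigment sums here and below. No listed lens or pigment gene was at 0 on this array scale, where every probe set has a positive signal. The summed signal of the rod markers overlapped between the genotypes (41824 to 46094 in null, 40505 to 47343 in WT). That of 8 cone markers also overlapped (18475 to 20260 in null, 17796 to 22776 in WT). Of these 8, 2 were called lower in null by limma, Pde6h and Arr3, against 1.06% of all genes called. An unadjusted p under 0.05 was found for 5 of the 8, against 12.5% of all genes. The summed signal of 6 ON bipolar markers did not overlap (4968 to 6112 in null, 4457 to 4833 in WT), with 0 of 6 called by limma and 3 at an unadjusted p under 0.05. Of 2 blood markers 0 were called and both had an unadjusted p under 0.05, with a median of -1.05. At 4 months the sum of 7 microglia markers was 448 to 484 in null and 380 to 406 in WT, without overlap, with 0 of 7 called and 2 at an unadjusted p under 0.05. The means of C1qb (6.77 in null, 6.28 in WT) and P2ry12 (7.04 and 6.61) differed most, and Tmem119 was lower in null (5.14 and 5.23). C1qa, C1qc and Tmem119 lay near or below the array medians. The part of these cell types in the values of the recovery genes was not tested.

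The second comparison, 4 months against 2 weeks, asked how the recovery genes change as the retina matures. Here several members moved. In WT retinas Guca1a and Gucy2e rose and Pdc fell, and 7 of the 10 did not pass. In null retinas Guca1a, Guca1b, Gucy2f, Grk1 and Rgs9 rose, Pdc fell, and 4 did not pass. Of all genes, 9.19% were called in WT (4.38% rose, 4.81% fell) and 9.61% in null (3.71% rose, 5.9% fell). An unadjusted p under 0.05 was found for 6 of the 10 in WT and 9 in null, against 23.1% and 22.7% of all genes. The median difference of the 10 was 0.24 in WT (-0.04 over all genes) and 0.33 in null (-0.02 over all genes). In a bulk retina a change in the number of photoreceptors and a change of RNA per cell cannot be told apart. The summed signal of the rod markers was 45877 to 50339 at 4 months against 40505 to 47343 at 2 weeks in WT, and 44616 to 48337 against 41824 to 46094 in null. Of the 7 rod markers 2 rose in WT and 0 passed in null by limma, with 3 in each at an unadjusted p under 0.05. The 2 were Gnat1 and Sag, which are counted again below in the rod activation arm and the partners of recovery. Of 6 ganglion cell markers 2 fell in WT and 2 in null, with sums of 7066 to 8416 at 4 months against 8335 to 11557 in WT, and 6690 to 7922 against 8856 to 10651 in null. Of 7 microglia markers 3 fell in WT (380 to 406 against 481 to 526) and 2 in null (448 to 484 against 484 to 537). Of 6 ON bipolar markers 2 rose and 1 fell in WT, and 2 fell in null. The part of these cell types in the change of the recovery genes was not tested.

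**Figure D3:**
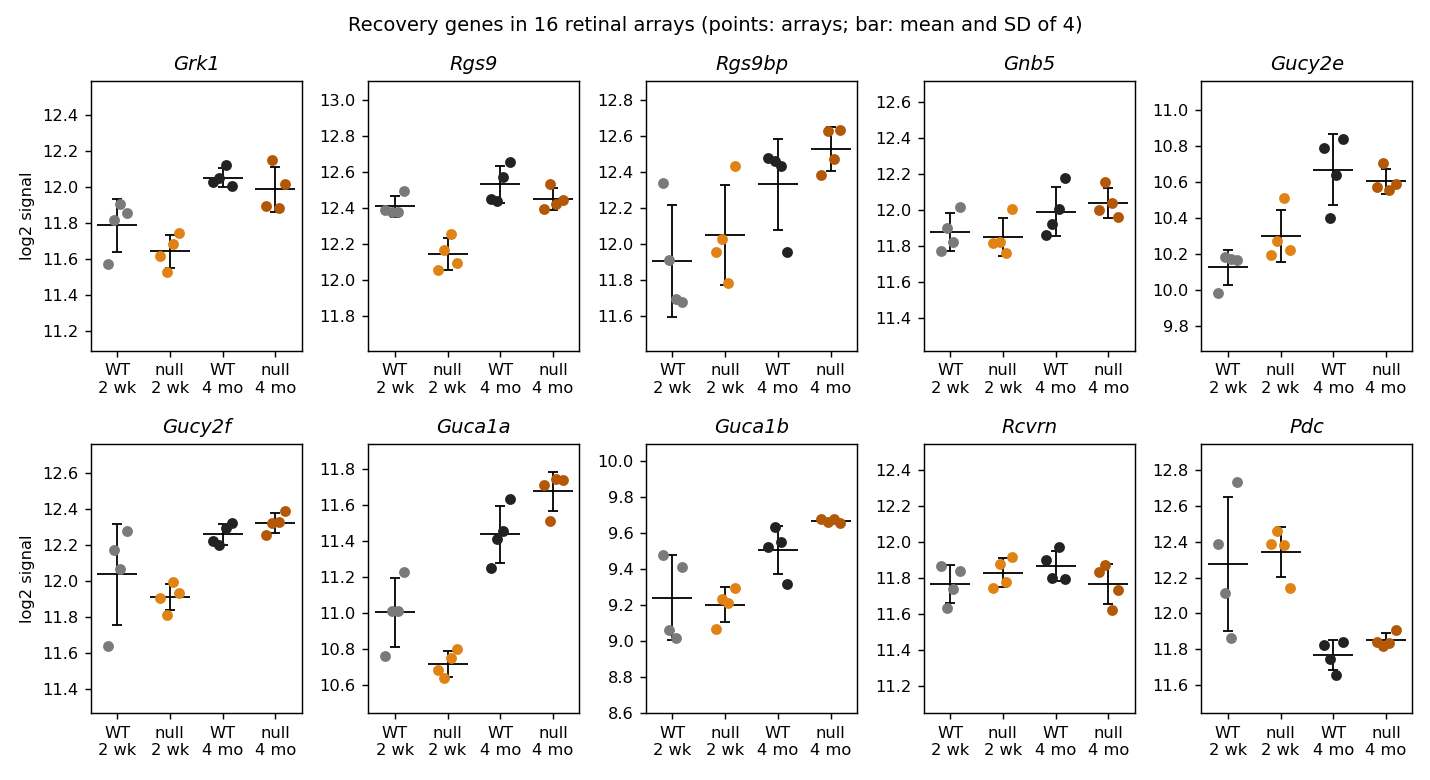
Log2 signal of each recovery gene in the 16 arrays (points), with the mean and SD of each group of 4 (bars). Each panel spans 1.5 log2 units around its own centre. Guca1a climbs most from 2 weeks to 4 months in null, Pdc falls in both genotypes, and Rcvrn stays between 11.62 and 11.97 in every array.

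Guca1a had the largest rise in null retinas, and the second largest, after Gucy2e, in WT. Its 16 values are given above, and in both genotypes all 4 arrays of 4 months lay above all 4 arrays of 2 weeks. In WT the mean went from 11.00 ± 0.193 to 11.44 ± 0.158 (SD, n = 4), a log2 difference of 0.43 (SE 0.103, 1.35-fold, limma adjusted p = 0.0148). In null it went from 10.72 ± 0.0716 to 11.68 ± 0.110 (SD, n = 4), a log2 difference of 0.96 (SE 0.103, 1.94-fold, adjusted p = 3.8e-05). The order of the group means was null at 2 weeks, WT at 2 weeks, WT at 4 months and null at 4 months, so the null means lay outside the WT means at both ends. Without WT replicate 1 of 2 weeks the rise in WT was 0.35, and the WT call was lost when only the WT arrays were fitted (adjusted p = 0.0811).

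Whether the rise of Guca1a differed between genotypes was tested by the interaction of genotype and age. Its size was 0.53 (95% interval 0.22 to 0.83, unadjusted p = 0.00237), and it did not pass over all genes (limma adjusted p = 0.483). Without WT replicate 1 of 2 weeks it was 0.61 (adjusted p = 0.105), and over all alternatives the adjusted p ran from 0.0549 to 0.809. No member passed the interaction test, against 0.00987% of all genes, and Guca1a alone had an unadjusted p under 0.05, as had 5.92% of all genes. The interactions of the other members ran from -0.24 (Gucy2e) to 0.20 (Guca1b), so the different sets of called members in WT and null are not shown to differ between the genotypes.

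The partner activator Guca1b rose in null retinas, from 9.07, 9.23, 9.21 and 9.30 at 2 weeks to the values near 9.67 given above. The difference was 0.47 (SE 0.105, 1.38-fold, limma adjusted p = 0.00991), and the call held without any 1 array. In WT it read 9.48, 9.06, 9.01 and 9.41 at 2 weeks, a spread that overlapped the 4-month arrays, and its difference of 0.27 did not pass (adjusted p = 0.133). It passed in WT without replicate 1 of 2 weeks (0.35).

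Of the cyclases, Gucy2e rose in WT, from 9.98 to 10.19 at 2 weeks to 10.79, 10.40, 10.64 and 10.84 at 4 months. The groups did not overlap, and the difference of 0.54 (SE 0.101, 1.46-fold, limma adjusted p = 0.00329) held without any 1 array. In null it read 10.57, 10.71, 10.55 and 10.59 at 4 months, above all null arrays of 2 weeks, with a difference of 0.30 that did not pass (adjusted p = 0.0694). It passed without null replicate 3 of 2 weeks (0.37), and also without WT replicate 1 of 2 weeks or WT replicate 2 of 4 months, which enter only through the shared estimate of spread.

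Gucy2f behaved in the other order. In null retinas it read 11.91, 11.81, 11.99 and 11.93 at 2 weeks and 12.25, 12.32, 12.33 and 12.39 at 4 months, without overlap, and rose by 0.41 (SE 0.108, 1.33-fold, limma adjusted p = 0.0232). In WT it read 11.64, 12.17, 12.07 and 12.27 at 2 weeks and 12.22, 12.20, 12.29 and 12.32 at 4 months. WT replicate 1 of 2 weeks was far below its group, and the WT difference of 0.22 (adjusted p = 0.235) was 0.09 without it. Both WT arrays of 2 weeks with Xist signal stand at the ends of that group, replicate 1 lowest and replicate 4 highest. Leaving out null replicate 1 or 2 of 2 weeks, or null replicate 2, 3 or 4 of 4 months, ended the null call (0.38 to 0.41), as did quantile normalization (0.26) and median centring (0.40).

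**Figure D4:**
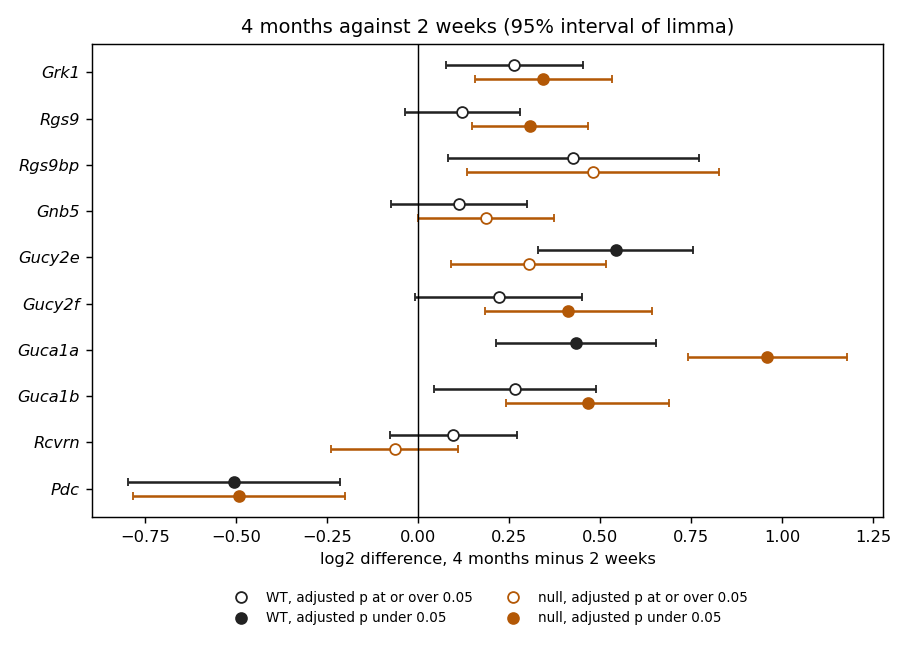
Log2 difference between 4 months and 2 weeks (x axis) for the 10 recovery genes in WT (black) and null (brown) retinas, with the 95% interval of the limma fit. Filled points passed an adjusted p of 0.05: Gucy2e, Guca1a and Pdc in WT, and Grk1, Rgs9, Gucy2f, Guca1a, Guca1b and Pdc in null.

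Grk1 read 11.61, 11.53, 11.69 and 11.74 in null retinas at 2 weeks and 11.89, 12.15, 11.89 and 12.02 at 4 months. The groups did not overlap, and Grk1 rose by 0.34 in null (SE 0.0883, 1.27-fold, limma adjusted p = 0.0205). In WT it read 11.57, 11.82, 11.90 and 11.85 at 2 weeks and 12.03, 12.05, 12.12 and 12.003 at 4 months, again without overlap, with a difference of 0.26 that did not pass (adjusted p = 0.0737). The null call was lost without null replicate 1 or 2 of 2 weeks or null replicate 2 or 4 of 4 months (0.29 to 0.33), after median centring (0.33) and after quantile normalization (0.22).

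Within the transducin GTPase complex, Rgs9 rose in null by 0.31 (SE 0.0750, 1.24-fold, limma adjusted p = 0.0156), and its 2-week and 4-month arrays did not overlap. The WT difference of 0.12 did not pass (adjusted p = 0.360), and it was -0.09 after quantile normalization. The null call was lost without null replicate 1 of 2 weeks or null replicate 2 of 4 months (0.28 in both), and after quantile normalization (0.15). Rgs9bp ran from 11.68 to 12.63 over all arrays and differed by 0.43 in WT (adjusted p = 0.120) and 0.48 in null (adjusted p = 0.0776). It passed in WT without replicate 1 of 2 weeks (0.57) or replicate 4 of 4 months (0.55), and in null without null replicate 4 of 2 weeks (0.61) or WT replicate 1 of 2 weeks (0.48). Gnb5 ran from 11.76 to 12.17 and differed by 0.11 in WT (95% interval -0.07 to 0.30) and 0.19 in null (0.00 to 0.37). Gnb5 also partners other RGS proteins in bipolar cells and elsewhere in the nervous system.

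Rcvrn, the calcium sensor that holds the kinase in the dark, differed by 0.10 in WT (95% interval -0.08 to 0.27) and by -0.06 in null (-0.24 to 0.11). Its group means lay between 11.76 and 11.86, and all 4 groups overlapped.

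Pdc, which binds the beta and gamma subunits of transducin and in rods moves with light between compartments, was the only member that fell. In WT it read 12.38, 12.11, 11.86 and 12.73 at 2 weeks and 11.82, 11.75, 11.66 and 11.84 at 4 months. The 2-week arrays were widely spread (SD 0.372) and all lay above the 4-month arrays (SD 0.0843), with replicate 3 of 2 weeks only just above. In null it read 12.39, 12.46, 12.38 and 12.14 at 2 weeks and 11.84, 11.82, 11.83 and 11.91 at 4 months, also without overlap. Pdc fell by 0.51 in WT (SE 0.137, 1.42-fold, limma adjusted p = 0.0293) and by 0.49 in null (SE 0.137, 1.41-fold, adjusted p = 0.0320). Both calls lie near the threshold: without 1 array the WT difference ran from -0.64 to -0.35 and the null difference from -0.56 to -0.45. The WT call was lost when only the WT arrays were fitted (adjusted p = 0.125), after median centring (-0.47), and without WT replicate 4 of 2 weeks (-0.35) or WT replicate 1, 2 or 3 of 4 months. The null call was lost without any 1 of the 4 null arrays of 4 months or null replicate 1, 2 or 3 of 2 weeks.

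Without overlap between the ages were 4 of the 10 genes in WT (12.7% of all genes) and 7 in null (17.5% of all genes). The 4 were Grk1, Gucy2e, Guca1a and Pdc, and the 7 were these with Rgs9, Gucy2f and Guca1b. In null retinas the summed signals at 4 months were 8550 to 36696 for lens and 2215 to 3316 for pigment epithelium, against the 2-week ranges given above, which overlap for lens and not for pigment epithelium. Of these genes 1 of 11 lens markers fell, a share near that of all genes, and 5 of 10 pigment markers. In WT 0 of 11 lens genes passed by limma and 2 of 10 pigment genes fell. Their part in the changes of the recovery genes was not tested.

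The rest of the cascade gives the setting. Of all genes, 9.19% were called with age in WT and 9.61% in null. In a list of 8 to 13 genes, 1 call is near that share. Of 8 measured genes of the rod activation arm, 1 rose with age in WT and 1 in null, with medians of 0.16 in both: the rod transducin alpha subunit Gnat1 in WT (0.28, adjusted p = 0.0264) and the beta subunit Gnb1 in null (0.36, adjusted p = 0.00865). Of 9 genes of the cone activation arm, the middle-wave opsin Opn1mw fell in both genotypes (-0.36 and -0.30), the other 8 did not pass, and the medians were -0.11 and -0.11. Of 13 measured partners of recovery, the rod arrestin Sag rose in WT (0.31, adjusted p = 0.0304) and the cone arrestin Arr3 in null (0.41, adjusted p = 0.0475), with medians of -0.01 and 0.05. The calls of Sag, Gnat1 and Arr3 with age were each lost without any one of several arrays, at differences from 0.26 to 0.31 for Sag, 0.23 to 0.29 for Gnat1 and 0.36 to 0.43 for Arr3. The Na/Ca-K exchanger Slc24a1, which removes calcium from rod outer segments, differed by 0.15 and 0.09, and Rd3, an inhibitor and carrier of the retinal cyclases, by -0.15 and -0.20, none of which passed.

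**Figure D5:**
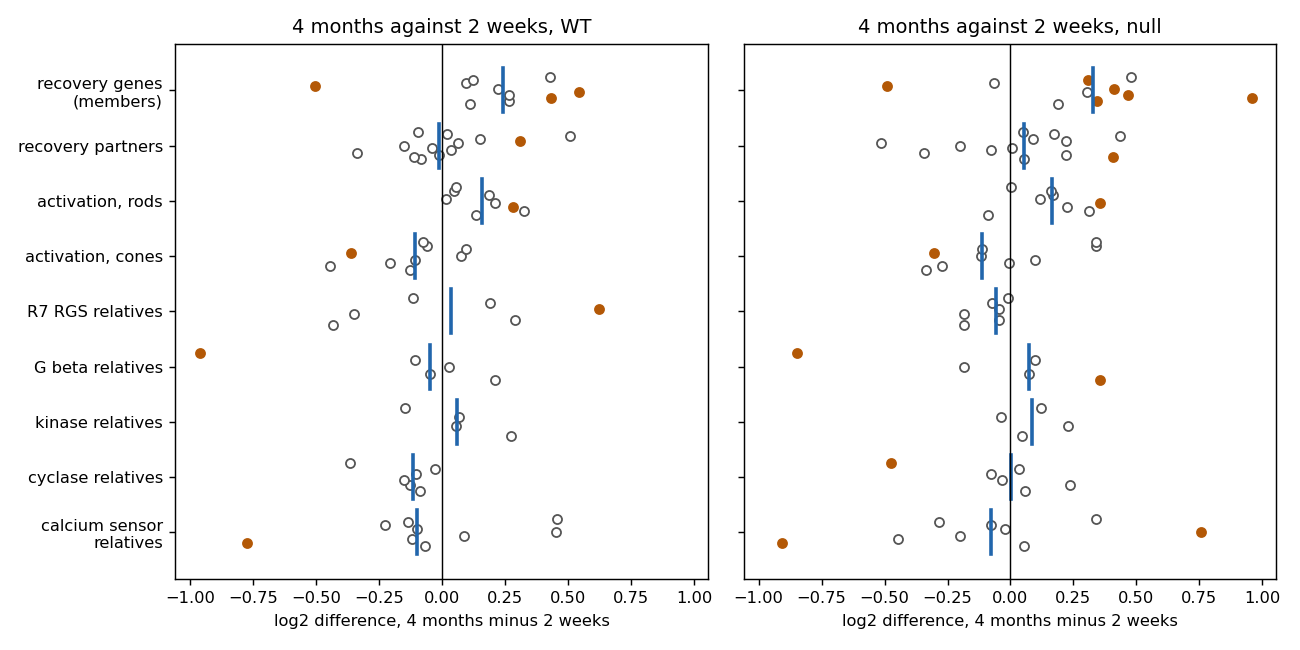
Log2 difference between 4 months and 2 weeks (x axis) for each measured gene of the recovery set and of 8 related lists, in WT (left) and null (right). Filled points passed a limma adjusted p of 0.05, and the blue line is the median of the list. The median of the recovery genes is 0.24 in WT and 0.33 in null, and those of the rod activation arm are 0.16 in both.

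Relatives of the members were looked at by family, beside calls with age in 9.19% of all genes in WT and 9.61% in null. Between genotypes at 2 weeks 1.06% of all genes were called. Of the 6 genes of the R7 RGS family and its anchors, Rgs6 rose with age in WT (0.62, adjusted p = 0.00343) and was higher in null than in WT at 2 weeks (0.63, adjusted p = 0.0144), while the other 5 did not pass in any comparison. Of the 5 beta subunit relatives of Gnb5, Gnb4 fell with age in WT (-0.96) and null (-0.85), and Gnb1, also counted in the rod arm, rose in null as given above. Of 9 calcium-binding proteins listed beside recoverin, Calb1 fell in both genotypes (-0.77 and -0.91) and Hpcal1 rose in null (0.76). Calb1 is a calcium buffer and not of the sensor family of recoverin, to which Hpcal1 belongs. None of the 4 measured kinase relatives of Grk1 was called in any comparison by limma, with 0 of 4 at an unadjusted p under 0.05. Of 6 genes listed as relatives of the membrane guanylate cyclases, Npr3 fell in null (-0.47, adjusted p = 0.0433). It encodes a natriuretic peptide receptor without a cyclase domain. The group means of Npr1, Gucy2c, Gucy2d and Gucy2g ran from 4.75 to 5.44, near or below the array medians of 5.31 to 5.55, where a change is hard to see.

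Between the genotypes, few genes of the cascade around the members passed the test. Of all genes, 1.06% passed at 2 weeks, 0.41% at 4 months and 1.4% averaged over both ages. Of the cone activation arm, the cone phosphodiesterase gamma gene Pde6h was lower in null by 1.54 at 2 weeks and 1.13 at 4 months on the log2 scale, and the other 8 of 9 did not pass at either age. An unadjusted limma p under 0.05 was found for 4 of the 9 at 2 weeks and 3 at 4 months. Of all genes, 12.5% and 5.37% had one. At 2 weeks these were Pde6h, Pde6c (-0.60) and Opn1mw (-0.30), lower in null, and Opn1sw (0.30), higher in null. Groups did not overlap for 3 of the 9 at each age, against 5.82% and 4.73% of all genes. Averaged over both ages Opn1mw was also called lower in null (-0.27, adjusted p = 0.0158). Of the partners of recovery, Arr3 was lower in null at 2 weeks (-0.59, adjusted p = 0.0283), a call lost without any one of 6 of the 8 arrays compared (-0.59 to -0.52), and 12 of 13 did not pass. None of the 8 genes of the rod activation arm was called at 2 weeks or 4 months by limma, with 1 and 0 at an unadjusted p under 0.05.

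Within groups, 11 of 45 pairs of members had deviations from the group means that correlated above 0.5 in size, 3 of them negatively. The deviations of Gucy2f and Guca1a had a Pearson r of 0.74 over the 16 arrays, those of Grk1 and Gucy2f 0.68, and those of Rgs9 and Gucy2e 0.67. Rgs9bp ran against Guca1a (-0.59) and Gucy2f (-0.58). These values are descriptions of pairs measured on the same arrays, which share labelling and normalization. WT replicate 1 of 2 weeks had the lowest value of its group for 5 members and the highest for 3. Without it the r was 0.61 for Gucy2f and Guca1a and 0.68 for Rgs9 and Gucy2e, but 0.29 for Grk1 and Gucy2f, -0.39 for Rgs9bp and Guca1a and -0.17 for Rgs9bp and Gucy2f.

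Over the 16 arrays, the 5 genes outside the set whose signal followed the mean of the standardised members most closely were Rhot1 (r = 0.96), Adgrv1 (0.95), Celsr3 (0.94), Cep164 (0.94) and Nfatc3 (0.93). For single members the closest gene was Bst1 for Guca1a (0.96), Syne1 for Grk1 (0.96), Pcsk1n for Rgs9bp (0.94), Ralgapa1 for Gucy2f (0.93), Guca1b's was Gatad2b (0.93), and Gucy2e's was Kansl1 (0.93). It was H2ac6 for Rgs9 (0.89), Alkbh2 for Gnb5 (0.89), E230001N04Rik for Pdc (0.90) and Swt1 for Rcvrn (0.86). Each is the highest value over all other genes, on arrays that fall into 2 ages, and is given as a description.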

How the data were processed

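The authors deposited 1 table of log2 signals, with a column for each of the 16 arrays and 115830 transcript clusters. Per the submitters' processing notes, Partek, RMA and the genome build mm8 were used; their versions are not given in the sources used here. With no log base stated, log2 was taken from the range of the values, 3.76213 to 15.7311. Transcript clusters annotated with 1 gene (25539) gave 20259 genes, each represented by its cluster of highest mean. No scaling or filter on low signal was applied.

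All 16 arrays were fitted in 1 limma 3.58.1 model (R 4.3.3, lmFit and eBayes) with a mean for each of the 4 groups (12 residual degrees of freedom), adjusting over all genes (Benjamini-Hochberg). Exact permutation tests are two-sided. P-values measure the spread of biological replicates as labelled. The procedure was tested on simulated data. The changes planted there were larger than any genotype difference of a member, so that test does not show the power for differences this small. The same-numbered arrays of different groups did not deviate together (correlations of residuals from -0.281 to 0.230), so replicate numbers were not used as pairs. Alternatives covered normalization, signal filter, rows, arrays fitted, moderation, weights, replicate block, sex, thresholds and each array left out. The members, lists and tests were chosen with earlier results of these data known. Named genes were all members, up to 4 called genes of each list, and the closest genes by correlation; Slc24a1 and Rd3 were named after their values were seen. Promoters and gene names are from RefSeq GRCm38.p6, which is not the build of the array.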

Additional observations from a re-analysis of the deposited data

Results flagged for a closer look

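Among 40 groups of 4 arrays (10 genes, 4 groups), 4 held an array far from the other 3 by Dixon's test at the 95% level, where chance alone flags about 1 in 20 groups. Rgs9 read 12.49 in WT replicate 4 of 2 weeks, above 12.38 to 12.39 in the other 3. Rgs9bp read 11.95 in WT replicate 4 of 4 months, below 12.44 to 12.48. Gucy2e read 9.98 in WT replicate 1 of 2 weeks, below 10.17 to 10.19. Guca1a read 11.51 in null replicate 2 of 4 months, below 11.71 to 11.75.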

How the results depend on the processing

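Of 1660 recomputed differences of the members, 1560 kept their direction and their side of the threshold, 41 lost a call, 18 gained one and 41 uncalled ones changed sign; no called difference changed sign. The number of members called between genotypes was 0 at each age and averaged, except after quantile normalization, when it was 1 at 2 weeks and 1 averaged over the ages (Rgs9 in both). For 4 months against 2 weeks in WT the number was 3, and it was 1 with only the arrays compared, 5 with array weights, 0 at a fold of at least 1.5, and 2 to 5 when single arrays were left out, with 5 without WT replicate 1 of 2 weeks and 2 without WT replicate 4 of 2 weeks or WT replicate 1, 2 or 3 of 4 months. In null it was 6, and it was 3 after quantile normalization, 3 with all rows of the table, 1 at a fold of at least 1.5 (Guca1a), and 2 to 8 without single arrays: 2 without null replicate 1 of 2 weeks or null replicate 2 of 4 months, and 3 without null replicate 2 of 2 weeks or null replicate 4 of 4 months. With all rows more tests are adjusted for, and the moderation of the spread also draws on all rows. For no setting was the cause of the changed number tested. With the replicate block the numbers were 3 in WT and 6 in null, and 0 between genotypes at either age. With the sex covariate 0 members were called between genotypes at either age. Of all genes, 109 were then called between genotypes at 2 weeks, against 214 without the covariate. The share of called genes that rose with age was 47.7% in WT and 38.6% in null over all genes, 31.5% and 25.9% after quantile normalization, 59.1% and 32.2% after median centring, and 68.1% and 63.6% with all rows of the table, so the direction shares quoted beside the members depend on these settings. Over all genes, the number called ran from 43 to 846 at 2 weeks (214 as reported), 50 to 230 at 4 months (83), 108 to 956 averaged (284), 0 to 38 for the interaction (2), 677 to 6247 with age in WT (1861) and 826 to 4136 in null (1947). Between the genotypes the share of called genes higher in null at 2 weeks was 59.8%, and it was 76.9% after median centring, 47.0% with array weights, 44.0% with the sex covariate, 37.2% with only the arrays compared and 38.9% without WT replicate 1. Averaged over the ages it was 51.1%, and from 41.9% (without WT replicate 1 of 2 weeks) to 63.2% (median centring) over the alternatives. The fit with only the arrays compared could not be made for the average over ages or the interaction, which need all 4 groups.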
